A study of Mus musculus with 4 samples.

Results

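Epithelial identity regulators and the matriptase system were represented by 10 genes: the transcription factors Grhl1, Grhl2, Elf3 and Ehf, the adhesion protein gene Epcam, the protease gene St14 with its inhibitor genes Spint1 and Spint2, and the sorting genes Rab25 and Ap1m2. Members were taken as the non-control probes of the scanner files whose gene name was one of these symbols, which gave 14 of 55681 probes and 10 of 34821 gene names. Each had at least 1 probe, 6 genes having a single probe and 4 genes having 2.

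The study set 2 arrays of islet-like clusters against 2 of native islets. The clusters came from passaged, fibroblast-like Swiss albino mouse pancreatic cells resembling mesenchymal stromal cells and formed over 10 days on low-adherence dishes in serum-free medium with insulin, transferrin and selenium. Taurine at 0.3 mM was added on day 3, and 100 mM nicotinamide, 3 mM taurine and the peptide GLP-1 on day 7. The islets of Langerhans came from the same kind of collagenase digest and were titled as 48 h in culture but described as freshly isolated. All mice were labelled male and 10 to 12 weeks old, and tissue was pooled from 2 to 4 mice. Whether replicates are separate pools or cultures is not given in the labels, so the p-values reflect the spread of these 4 arrays alone, and that spread may be technical. No array of the starting stromal cells was analysed here.

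Grainyhead-like factors such as GRHL1 and GRHL2 bind the regulatory regions of junction genes and help to keep cells epithelial, while ELF3 and EHF are Ets factors found mainly in epithelia. Matriptase, the product of St14, is a serine protease of the epithelial cell surface that is held in check by the Kunitz inhibitors HAI-1 (Spint1) and HAI-2 (Spint2) and can cleave EpCAM. RAB25 belongs to the RAB11 family and guides recycling to the apical membrane, and Ap1m2 encodes the medium subunit of the epithelial AP-1B clathrin adaptor, which sorts cargo to the basolateral membrane. In the pancreas, duct, acinar and endocrine cells are all epithelial, and EpCAM is known as a marker of that lineage as a whole.

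The probes that measured these genes are 60 bases long. The 6 below are shown because each decides how a result below is read: the probes of Epcam, Rab25 and Ap1m2 map to mm9 spans longer than themselves (829, 390 and 1013 bases), as a probe across a splice junction does, and those of Grhl2, Ehf and Spint2 are the more upstream of a pair that gave unequal differences.
Epcam (chr17:88048972-88049800, plus strand): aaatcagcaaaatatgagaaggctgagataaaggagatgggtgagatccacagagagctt
Rab25 (chr3:88346274-88346663, minus strand): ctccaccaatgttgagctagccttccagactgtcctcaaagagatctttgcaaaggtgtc
Ap1m2 (chr9:21102750-21103762, minus strand): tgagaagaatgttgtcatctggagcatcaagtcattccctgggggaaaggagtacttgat
Grhl2 (chr15:37239426-37239485, plus strand): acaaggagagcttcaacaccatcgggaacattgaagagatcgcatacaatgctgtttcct
Ehf (chr2:103114043-103114102, minus strand): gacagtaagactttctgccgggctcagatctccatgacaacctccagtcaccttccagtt
Spint2 (chr7:30066532-30066591, minus strand): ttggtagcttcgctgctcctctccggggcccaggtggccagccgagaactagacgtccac

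On mm9 the probe of Grhl1 lay at chr12:25302095-25302154 (plus strand), that of Elf3 at chr1:137150328-137150387 (minus strand) and that of St14 at chr9:30897249-30897308 (minus strand). The second probe of Grhl2 lay at chr15:37293139-37293198 (plus strand), that of Ehf at chr2:103106827-103106886 (minus strand) and that of Spint2 at chr7:30041332-30041381 (minus strand). The probes of Spint1 lay at chr2:119074929-119074988 (plus strand) and chr2:119074872-119074931 (plus strand) and share 3 bases. Exon and UTR annotation of that build was not used here.

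RefSeq promoter windows on GRCm38.p6, from 250 bases before to 50 after a gene start, were given for 7 of the 10 genes as 8 windows (Grhl1 has 2). The windows were searched for the E-box CACCTG, the grainyhead sequence and an Ets sequence, and those with the E-box are shown. Counted on both strands as CACCTG or CAGGTG, that motif occurred in 5 of the 8 windows, against 20.2% of all 32851 windows of this length. Ap1m2 held 4 copies and Spint2 held 3, and 0.0548% of all windows held 4 or more and 0.365% held 3 or more. Epcam and Rab25 held 2 copies each and Elf3 held 1, while neither window of Grhl1 and not the window of Spint1 contained it. The 200 bases before the gene start are given for the 5 windows that hold it, with the motif in capitals.
Epcam (chr17:87635779-87635978, plus strand): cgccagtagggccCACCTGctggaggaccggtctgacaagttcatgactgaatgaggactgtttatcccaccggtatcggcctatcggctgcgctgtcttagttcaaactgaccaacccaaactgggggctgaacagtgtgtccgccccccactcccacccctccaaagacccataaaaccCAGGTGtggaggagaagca
Elf3 (chr1:135258473-135258672, minus strand): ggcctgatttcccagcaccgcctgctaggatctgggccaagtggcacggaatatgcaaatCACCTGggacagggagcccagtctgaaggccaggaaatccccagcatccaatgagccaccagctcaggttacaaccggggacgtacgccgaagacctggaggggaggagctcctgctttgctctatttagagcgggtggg
Spint2 (chr7:29281978-29282177, minus strand): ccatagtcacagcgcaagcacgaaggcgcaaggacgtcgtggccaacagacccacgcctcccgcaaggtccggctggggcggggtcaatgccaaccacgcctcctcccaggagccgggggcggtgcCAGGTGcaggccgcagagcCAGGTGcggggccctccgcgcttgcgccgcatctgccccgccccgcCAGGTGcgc
Rab25 (chr3:88548280-88548479, minus strand): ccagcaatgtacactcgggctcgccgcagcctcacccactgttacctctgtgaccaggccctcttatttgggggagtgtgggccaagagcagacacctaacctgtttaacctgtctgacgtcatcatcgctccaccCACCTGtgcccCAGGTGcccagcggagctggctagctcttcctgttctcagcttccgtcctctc
Ap1m2 (chr9:21312334-21312533, minus strand): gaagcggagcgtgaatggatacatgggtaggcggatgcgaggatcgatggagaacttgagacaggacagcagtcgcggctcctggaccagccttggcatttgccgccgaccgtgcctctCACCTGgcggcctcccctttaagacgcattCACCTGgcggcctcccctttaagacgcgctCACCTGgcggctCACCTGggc

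Counted from the gene start, the copies of Ap1m2 began at -81, -51, -21 and -9 and those of Spint2 at -74, -55 and -9. In Ap1m2 the copies at -81 and -51 are followed by the same bases almost up to the next copy, a tandem repeat. The copies of Ap1m2 are therefore not independent of each other. The grainyhead sequence AACCGGTT was in none of the 8 windows and in 0.146% of all windows, and its relaxed form AACNNGTT, which contains it, was in 1 (Rab25) against 4.2% of all. The Ets sequence CCGGAA was in 1 window (Spint1) against 14.9% of all. A match is a stretch of letters and not a measured binding site. Grhl2, Ehf and St14 are named only.

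Signal is given as log2 of the background-subtracted intensity minus the 75th percentile of the array, so that 0 is the level of that percentile. Levels of different probes are not set against each other, except where they are summed over the genes of a marker list. The share of gene spots called well above background was 59.7% and 62.3% for clusters and 63.6% and 61.2% for islets. Pearson's r over the tested genes, which are not independent replicates, was 0.985 for the pair of cluster arrays, 0.989 for the pair of islet arrays and 0.796 to 0.810 for pairs that crossed the groups. All 4 arrays were scanned on 1 day. A probe was tested when both arrays of either group had it well above background, and the probe with the highest mean stood for its gene. All 10 genes passed this filter on the islet arrays, and by the probe that stood for the gene 5 of them passed on the cluster arrays too. Epcam, Elf3, Spint2, Rab25 and Ap1m2 passed by that probe through the islet arrays only, so for these the filter itself favours a difference.

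All 10 genes were lower in islet-like clusters (limma, adjusted p under 0.05), with log2 differences of -11.55 to -3.19 and a median of -8.70, or -7.82 with dim genes held at their bound. The whole background was broad: 28.2% of the 24596 genes tested were called lower in clusters, 54.8% were called in either direction, and the median difference of all genes was -0.10. All 10 were also lower on both cluster arrays than on either islet array, as were 42.7% of all genes tested. Every one of the 14 probes was called lower when probes were tested singly, against 26.8% of all probes. In bulk RNA, fewer epithelial cells and less of each RNA per cell cannot be told apart.

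**Figure D1:**
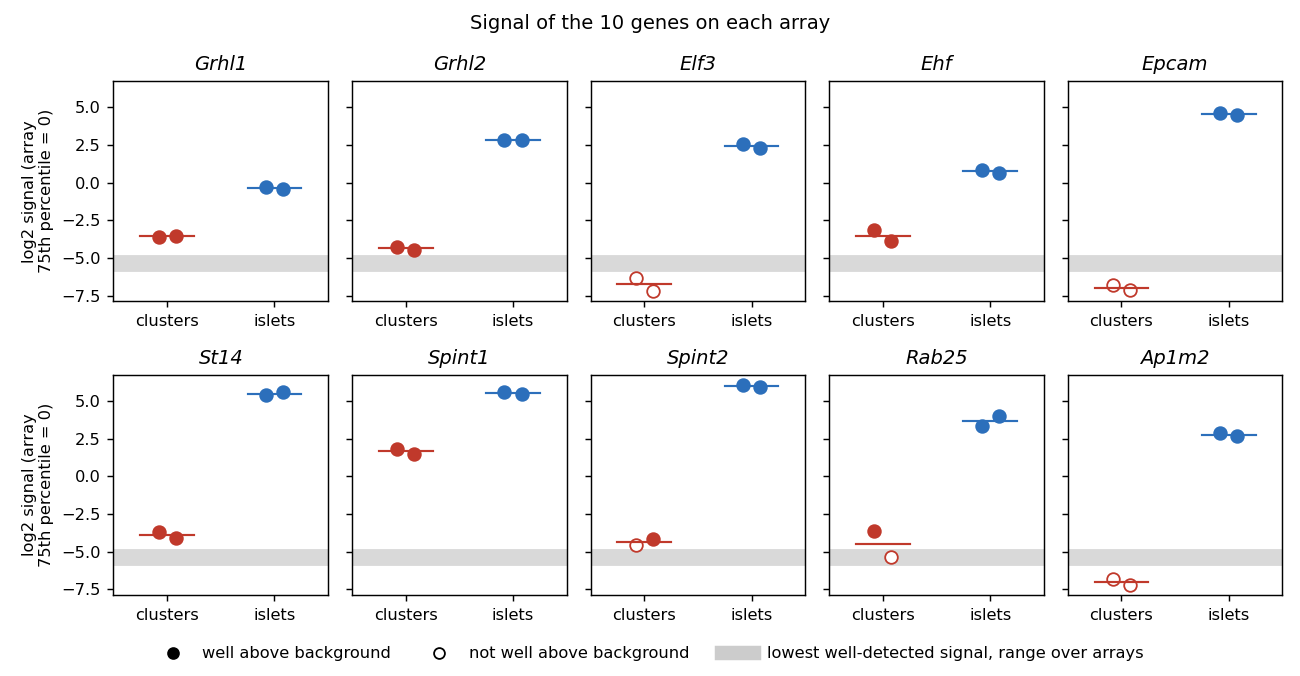
Log2 signal of the 10 genes (vertical axis, array 75th percentile at 0) on the 2 cluster arrays (red) and the 2 islet arrays (blue), with lines at the group means. Open points were not well above background and the grey band is the range over arrays of the lowest well-detected signal; both cluster points lie below both islet points in every panel, and Elf3, Epcam and Ap1m2 have open cluster points only.

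By the probe that stood for each gene, the grainyhead factors differed in how low they lay. Grhl2, which activates E-cadherin and claudin genes, was at -4.25 and -4.44 in clusters, against 2.82 and 2.85 in islets. The 4 values form groups 7.07 apart at their nearest, and all 4 spots were well above background (17.3 and 17.9 units of intensity in clusters, against 2304 and 1803 in islets). The difference was -7.18 ± 0.23 (SE of the fit), or 145-fold (limma adjusted p = 1.84e-08). Grhl1, best known as a regulator of desmosomal cadherins in the epidermis, was at -3.58 and -3.54 in clusters, against -0.29 and -0.45 in islets. It was well above background on all 4 arrays and differed by -3.19 ± 0.23, or 9.14-fold (limma adjusted p = 2.59e-06). This was the smallest difference among the 10 genes. The change of Grhl2, by its probe from base 4761, minus that of Grhl1 was -3.99 on the log2 scale (-4.20 to -3.78 over pairs of arrays). An exact permutation of 2 against 2 arrays cannot give p below 0.33, so such differences between genes are given with no test.

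The 2 probes of Grhl2 gave the same direction and unequal size. The probe shown above, from base 1360 of the transcript, was at -6.82 and -5.95 in clusters and not well above background there, against -2.88 and -2.15 in islets. It was lower by at least 6.48-fold (limma adjusted p = 5.91e-05 over probes), while the probe from base 4761 gave the 145-fold difference. The islet intensity of the probe from base 1360 was 44.4 and 56.2 units. That probe differed by -3.87 before the bound, against -3.19 for Grhl1, and its bound lies below the 9.14-fold difference of Grhl1. The gap between the 2 genes thus rested on the probe from base 4761. Averaging the probes of Grhl2 gave -5.53.

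The Ets factors were lower as well. Elf3, an activator of epithelial differentiation genes, was at -6.31 and -7.18 in clusters, against 2.56 and 2.33 in islets. Neither cluster array was well above background, so the difference is a bound: Elf3 was at least 201-fold lower (limma adjusted p = 2.32e-08). The bound sets the islet mean against the higher of the spot's own signal and the lowest signal among well-detected probes on each cluster array. Each fold given as at least a value is relative to that level and is not a strict minimum. A spot not well above background can lie over that lowest signal. On clusters replicate 1 the Spint2 probe from base 1135 did so, at -4.56 against -5.31. Ehf, a relative of Elf3, was at -3.15 and -3.88 in clusters and 0.86 and 0.66 in islets, well above background on all 4 arrays. It differed by -4.28 ± 0.29, or 19.4-fold (limma adjusted p = 1.69e-06).

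Ehf also depended on the probe. The probe shown above, from base 628, gave these values, whereas the one from base 1090 was at -6.82 and -5.85 in clusters (not well above background) and 2.03 and 1.80 in islets, at least 140-fold lower. Without clusters replicate 1 the second probe stood for the gene, and its difference was -7.77. Averaging the probes gave -6.27.

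Epcam, which encodes an adhesion molecule of nearly all simple epithelia, was dark in clusters. It was at -6.82 and -7.14 in clusters, against 4.63 and 4.51 in islets. The intensity was 2.91 and 2.74 units on the cluster arrays, against 8035 and 5698 on the islet arrays. The cluster spots were not well above background and lay 11.3 below the nearer islet array, so Epcam was at least 878-fold lower (limma adjusted p = 3.07e-09).

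**Figure D2:**
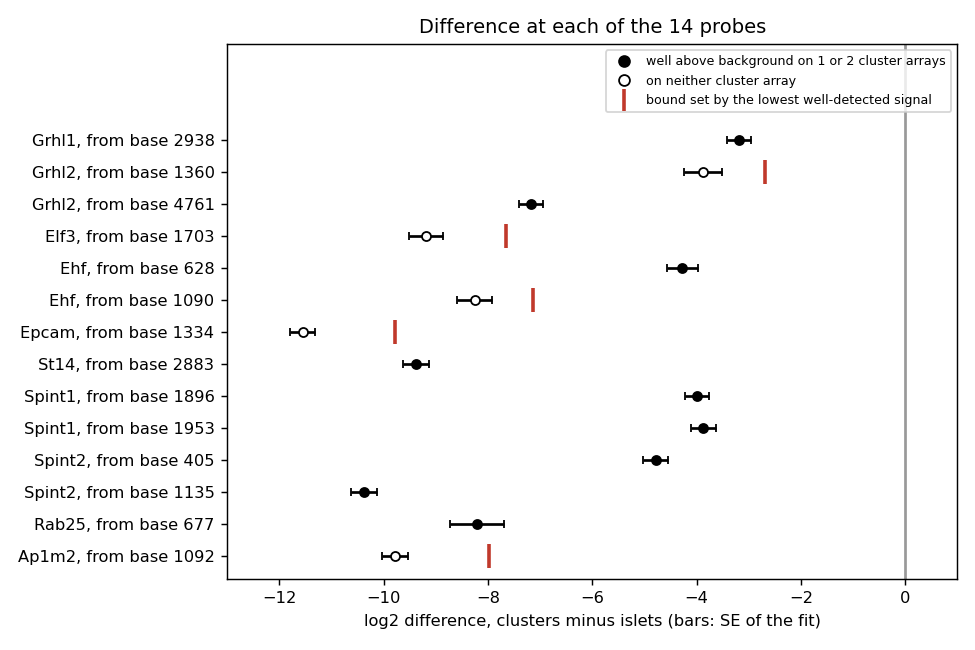
Log2 difference of islet-like clusters minus islets (horizontal axis, bars are the SE of the fit) at each of the 14 probes, named by gene and by the first base of the probe in its transcript. Open points had no cluster array well above background, and red ticks mark the bound for these; all 14 lie left of 0, and the pairs of Grhl2, Ehf and Spint2 differ in size while that of Spint1 does not.

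The protease gene was the most strongly lowered of the 5 members measured above background on all 4 arrays. St14 was at -3.72 and -4.08 in clusters, well above background, against 5.38 and 5.57 in islets. The difference was -9.38 ± 0.24, or 664-fold (limma adjusted p = 7.29e-09). Among the 20780 genes whose probe was well above background on all 4 arrays, St14 had the 17th lowest difference, with Grhl2 at rank 53, Ehf at 267, Spint1 at 349 and Grhl1 at 515.

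Spint1, the gene of HAI-1, stayed bright in clusters. It was at 1.81 and 1.51 there, against 5.60 and 5.46 in islets, and the cluster intensity was 1149 and 1102 units, against 15771 and 10961 in islets. It differed by -3.87 ± 0.24, or 14.6-fold (limma adjusted p = 9.34e-07), and its second probe gave -4.00 ± 0.23. The change of St14 minus that of Spint1 was -5.50 (-5.70 to -5.31 over pairs of arrays).

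Spint2, the gene of HAI-2, was at -4.56 and -4.16 in clusters, with 1 of the 2 arrays well above background, against 6.07 and 5.96 in islets. The difference was -10.38 ± 0.25, or 1328-fold (limma adjusted p = 4.50e-09). The probe shown above, from base 405, is annotated to a different RefSeq transcript from the probe that gave these values, from base 1135. It was at -1.46 and -1.69 in clusters and 3.11 and 3.31 in islets. Its difference was -4.78 ± 0.24, or 27.6-fold. So the size of the difference from islets, but not its direction, rested on the probe. Without islets replicate 1 or 2 the upstream probe stood for the gene and gave -4.88 and -4.69. The change of St14 minus that of Spint2 was 1.0 (0.47 to 1.53 over pairs of arrays) with the probe from base 1135. That is the other way from the pair with Spint1. With the probe from base 405, Spint2 (-4.78) was lowered less than St14 (-9.38), the same way as Spint1. The direction of this contrast therefore rested on the probe. Of the 60 bases of the probe from base 1135, 50 were mapped to mm9.

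Both sorting genes were lower. Rab25 was at -3.64 and -5.38 in clusters, against 3.36 and 4.04 in islets. Clusters replicate 1 was well above background and replicate 2 was not, the widest spread of the 10 genes (SD 1.23). The difference was -8.21 ± 0.49, or 296-fold (limma adjusted p = 7.85e-07), with -9.08 without clusters replicate 1 and -7.34 without clusters replicate 2. Ap1m2 was at -6.82 and -7.21 in clusters, not well above background, against 2.89 and 2.65 in islets. It was at least 252-fold lower (limma adjusted p = 6.35e-09), and the islet intensities were 2414 and 1566 units.

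The genes around each member were then counted. Of 11 other epithelial transcription and splicing regulators tested, 9 were lower in clusters, none was higher and 2 did not pass, with a median of -4.42, or -3.68 with bounds. The splicing regulators that set epithelial isoforms were among them: Esrp1 was at -1.11 and -1.47 in clusters against 4.02 and 4.24 in islets (-5.42 ± 0.25), and Esrp2 at -6.82 and -4.01 against 2.11 and 2.06 (-7.50 ± 0.70, with 1 cluster array well above background). Tfcp2l1, a relative of the grainyhead factors, was at least 61.3-fold lower, and Zfp750, a regulator of epidermal differentiation, at least 44.2-fold. Grhl3, the third grainyhead gene, was at -6.82 and -6.29 in clusters and -1.42 and -2.86 in islets, at least 8.40-fold lower.

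Ovol2, a repressor of mesenchymal genes, was at 3.79 and 3.56 in clusters and 4.31 and 4.02 in islets (limma adjusted p = 0.114). Trp63, a factor of stratified epithelia, was at 2.31 and 1.96 in clusters and 2.24 and 2.38 in islets (limma adjusted p = 0.563). Neither difference passed the test. Elf5, the third Ets factor of this family, was well above background on 1 islet array only and was not tested. With detection asked for on all 4 arrays, which leaves fewer genes to test, 4 regulators were lower, and with the probes of a gene averaged 1 was called higher.

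**Figure D3:**
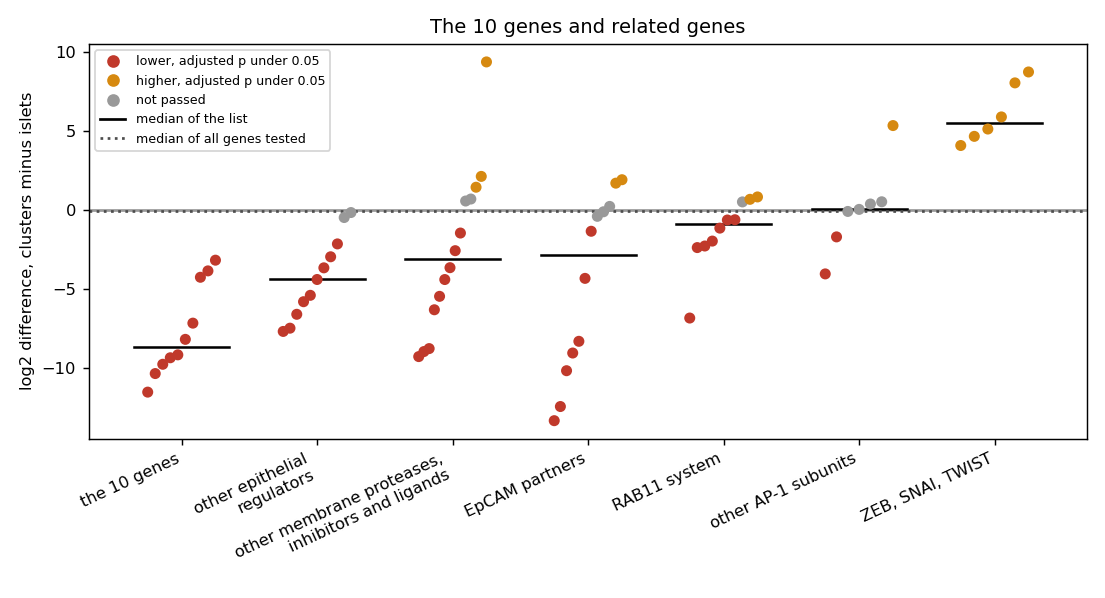
Log2 difference of islet-like clusters minus islets (vertical axis) for the 10 genes and for each tested gene of 6 related lists, coloured by whether it was called lower, called higher or did not pass, with a bar at each list's median and a dotted line at the median of all genes (-0.10). The 10 genes all lie below 0, the 6 ZEB, SNAI and TWIST genes all lie above it, and the AP-1 subunits straddle it.

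The ZEB, SNAI and TWIST genes, repressors of epithelial genes, went the other way. All 6 were higher in clusters, with a median of 5.50, where 26.6% of all genes tested were called higher. Zeb1 was at 3.21 and 3.03 in clusters against -0.90 and -1.0 in islets (4.07 ± 0.23), and Zeb2 at 3.89 and 3.70 against -2.13 and -2.06 (5.88 ± 0.23). Snai2 was at 4.25 and 4.06 in clusters against -3.95 and -3.82 in islets (8.04 ± 0.23). Twist1, not well above background in islets, was higher by at least 261-fold.

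Of 14 tested genes of other membrane proteases, their inhibitors, substrates and growth factor ligands, 9 were called lower and 3 higher, and 2 missed the threshold (median -3.13, or -2.42 with bounds). Prss8, the gene of prostasin, a protease that acts with matriptase, was at -2.08 and -2.62 in clusters against 3.22 and 3.05 in islets (-5.48 ± 0.26). The relatives Hpn (hepsin) at -8.98 ± 0.23, Tmprss4 (at least 240-fold) and Tmprss2 (at least 128-fold) were lower too. Hgf, whose precursor matriptase and HGF activator can cleave, was at 3.05 and 2.85 in clusters and not well above background in islets, at least 320-fold higher. Its receptor gene Met was at -2.62 and -2.86 in clusters against -1.33 and -1.20 in islets, 2.78-fold lower (limma adjusted p = 0.000582), and the activator gene Hgfac differed by -6.33 ± 0.37. Mst1r, the receptor of the related ligand MSP, was 4.33-fold higher, and Tmprss6, the liver relative of matriptase, 2.69-fold higher. The other 4 genes of that list (Tmprss7, Spint3, Spint4 and Serpinc1) were not well above background on any array. The count of higher genes in the list was 5 under robust fitting with a variance trend, and with detection on all 4 arrays 5 were lower.

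Of 12 tested genes listed around EpCAM, among them claudins, cadherin partners and proteases, 7 were called lower and 2 higher, and 3 missed the threshold (median -2.85). The claudin gene Cldn7, whose protein binds EpCAM, was at -1.94 and -2.29 in clusters against 7.01 and 6.90 in islets (-9.07 ± 0.24). Cldn3 differed by -12.46 ± 0.26 and Cldn4 by -10.19 ± 0.25, each with 1 cluster array well above background, and E-cadherin (Cdh1) was at least 3944-fold lower. The tetraspanin gene Cd9 (1.91 ± 0.23) and the sheddase gene Adam17 (1.69 ± 0.24) were higher, and Adam10 was lower (-1.36 ± 0.24). Cd44, Fhl2 and Ctnnb1 did not pass, with differences of -0.13, 0.21 and -0.41. With detection on all 4 arrays 3 genes were lower, and with the probes of a gene averaged 1 was higher.

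The other subunits of the AP-1 adaptor lay on both sides of 0. Among 7 tested genes 2 were called lower and 1 higher, while 4 missed the threshold (median 0.02). Ap1m1, the medium subunit of the ubiquitous AP-1A complex, was at 3.07 and 2.83 in clusters and 2.49 and 2.40 in islets (0.51 ± 0.23, limma adjusted p = 0.0934). The small subunits moved in opposite directions: Ap1s3 was at -1.66 and -1.82 in clusters against 2.43 and 2.22 in islets (-4.06 ± 0.23), and Ap1s2 at 3.07 and 2.91 against -1.93 and -2.76 (5.34 ± 0.30). Ap1g2 was lower (-1.72 ± 0.23). With scaling to the array median or with a variance trend and robust fitting, 2 subunits were called higher.

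Of 10 genes of the RAB11 system, 7 were called lower and 2 higher, and 1 missed the threshold (median -0.90). Rab11a, the ubiquitous relative of Rab25, was at 3.62 and 3.48 in clusters and 4.73 and 4.69 in islets, 2.24-fold lower (limma adjusted p = 0.00209). The change of Rab25 minus that of Rab11a was -7.05 (-8.21 to -5.89 over pairs of arrays). Myo5b, the motor that carries RAB11 vesicles to the apical membrane, differed by -6.86 ± 0.24, Rab17 by -2.39 ± 0.25 and Rab11fip4 by -2.30 ± 0.24. Rab11fip3 (0.81 ± 0.23) and Rab11fip2 (0.66 ± 0.25) were higher by less than 2-fold. Without islets replicate 1 or without islets replicate 2 the counts were 4 lower and none higher. None was called higher without clusters replicate 1 or with no filter on dim probes, and 1 without clusters replicate 2 or with normexp background correction.

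The 2 islet arrays were also set against each other. For the 10 genes islets replicate 1 minus replicate 2 ran from -0.68 (Rab25) to 0.24 (Ap1m2), with a median of 0.13 and 7 of 10 genes higher on replicate 1. Over the same arrays 9 islet endocrine markers had a median of 2.02 (8 of 9 higher on replicate 1), 9 acinar markers -0.46 (2 of 9) and 7 blood cell markers -0.57 (none of 7). Over 9 duct markers the median was 0.09 (5 of 9), over 6 endothelial markers 0.12 (3 of 6) and over 9 stromal markers -0.34 (3 of 9). Over all genes tested it was -0.02, with 11757 of 24596 genes higher on replicate 1. The medians of the duct and endothelial markers, and that of the other epithelial regulators (0.08), lay as near 0 as that of the 10 genes.

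**Figure D4:**
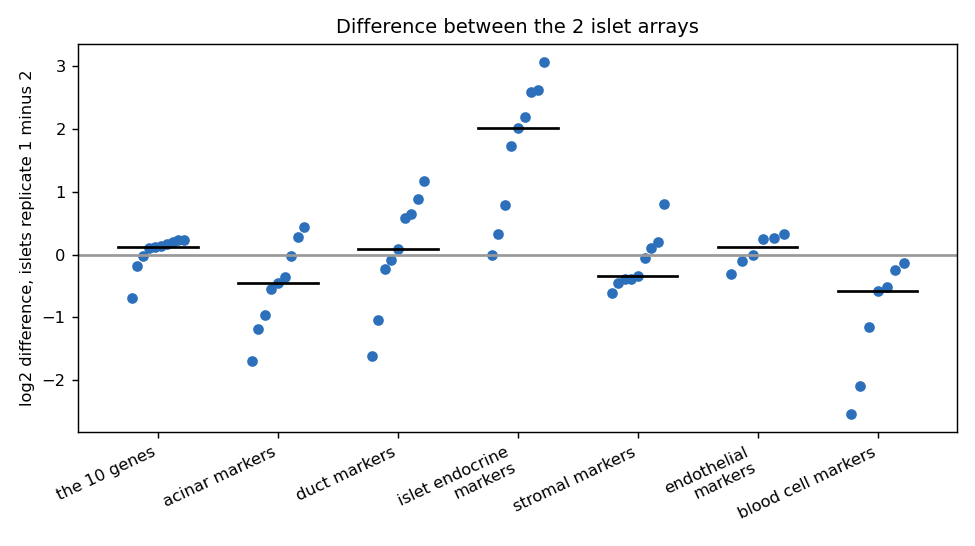
Log2 difference between the islet arrays (vertical axis, replicate 1 minus replicate 2) for each of the 10 genes and for the genes of 6 marker lists, with a bar at each median. The 10 genes lie between -0.68 and 0.24 while the islet endocrine markers have a median of 2.02 and the acinar markers one of -0.46.

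Markers of the epithelial cell types of the pancreas moved between the groups with the 10 genes. All 9 acinar markers were lower in clusters (median -10.94, or -10.30 with bounds), and their summed level, in multiples of the array's 75th percentile, was 1.47 to 1.62 in clusters against 2679 to 4211 in islets. Of these, Cpa1, Pnlip, Ptf1a and Bhlha15 were not well above background on either cluster array. All 9 islet endocrine markers were lower (median -5.41, summed level 0.546 to 0.865 in clusters against 26.6 to 154 in islets), and in clusters Gcg, Ppy, Iapp, Pdx1 and Slc2a2 were not well above background while Ins1, Ins2, Sst and Chga were. Of 9 duct markers 8 were lower and Spp1 was higher (median -3.36), with Krt7 and Tff2 not well above background in clusters. The summed duct level was 543 to 635 in clusters against 215 to 255 in islets, a sum that Spp1 leads. Krt19, a duct keratin, differed by -11.96 ± 0.34 with 1 cluster array well above background.

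All 9 stromal markers were higher in clusters (median 4.98, summed level 1404 to 1679 in clusters against 47.8 to 56.6 in islets), and each was well above background on all 4 arrays. Thy1, a surface protein of fibroblasts and stromal cells, differed by 7.53 ± 0.24 and the proteoglycan gene Dcn by 6.20 ± 0.25. All 6 endothelial markers were lower (median -3.96, or -3.07 with bounds, summed level 3.22 to 3.97 in clusters against 15 to 15.4 in islets, Cdh5 and Tek not well above background in clusters). Of 7 blood cell markers 4 were lower and 3 missed the threshold (median -1.15, summed level 25.6 to 30.2 in clusters against 31.8 to 54.4 in islets), and 2 were lower without clusters replicate 2. Under median scaling or robust fitting 1 blood cell marker was called higher. Esam, an endothelial adhesion gene, differed by -5.17 ± 0.24, the macrophage gene Aif1 by -4.49 ± 0.56 and the globin gene Hba-a1 by -4.24 ± 0.67. On the islet arrays all 9 endocrine markers, but also all 9 acinar markers, were well above background. With detection asked for on all 4 arrays 5 acinar, 3 duct and 4 endocrine markers were lower. The part of any of these cell types in the differences of the 10 genes was not tested.

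All 10 differences kept their direction and stayed below an adjusted p of 0.05 in each alternative in which the gene was tested. Background correction by normexp, which adds an offset of 50 units of intensity, made most of them smaller: -6.77 for Epcam, -5.24 for Ap1m2, -4.83 for Elf3, -5.81 for Rab25, -5.11 for Grhl2, -7.58 for St14, -8.15 for Spint2 and -1.87 for Grhl1. For Epcam, Ap1m2 and Elf3 these are smaller than the bounds above, which were set on signals without the offset and are not strict minima. Ehf (-4.18) and Spint1 (-3.73) stayed near their values.

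**Figure D5:**
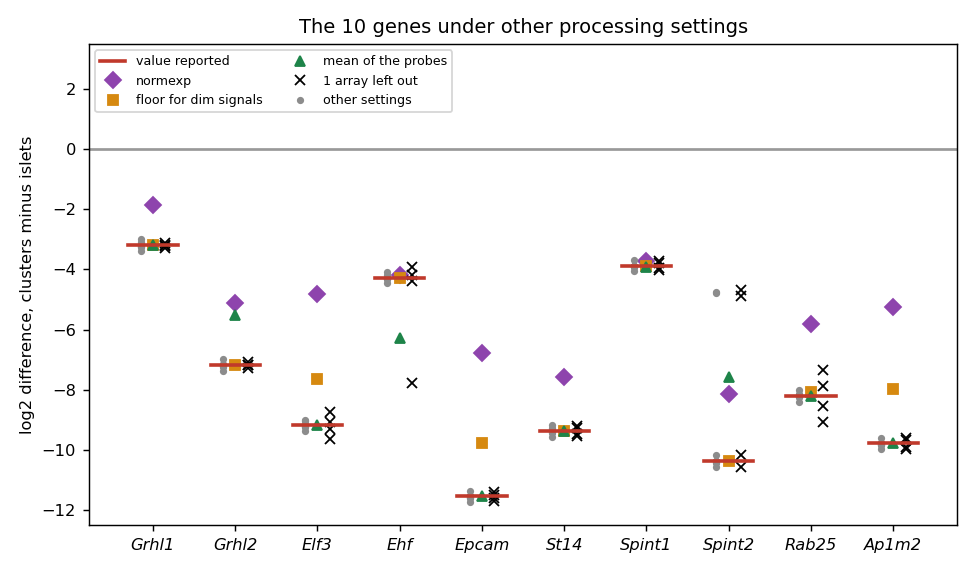
Log2 difference of islet-like clusters minus islets (vertical axis) for the 10 genes as reported (red bars) and under the other processing settings (symbols). All values lie below 0; normexp moves Epcam to -6.77 and Ap1m2 to -5.24, and Spint2 and Ehf shift where the other probe is chosen.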

How the data were processed

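The 4 single-colour Agilent arrays for mouse held 1 sample each, 2 per group, grouped by the sample titles. Per the labels, 500 ng of total RNA was copied from an oligo-dT primer and labelled with Cy3. Per the file headers, the deposited intensity values are the output of Feature Extraction 11.5.1.1 with mm9 positions and are background-subtracted and detrended. The software's flags were used as given. The deposited table of log2 values, made by the authors by steps not given in the sources used here, matched the scanner values (r of 0.99996 or higher, no centring per gene) and served as an alternative. Its column medians were -3.61 and -3.70 for clusters and -3.50 and -3.37 for islets.

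Control spots and spots flagged non-uniform (510 and 2 on the cluster arrays, 26 and 4 on the islet arrays) were left out, and spots of a probe were averaged as log2. Signals were scaled to the 75th percentile of each array, 490 probes without a value on an array were dropped, and 34974 probes passed the filter. No spot was saturated. Tests used limma 3.58.1 (R 4.3.3, 2-sided, no covariates) on clusters minus islets, adjusted by Benjamini-Hochberg over 24596 genes and a threshold of 0.05; the fit had 2 residual degrees of freedom, 9.06 with its prior. The fit was tested on simulated data with 50 genes changed at each size. It called 3 of 50 at a log2 size of 1, 47 at 2 and 50 at 4, and 8 of 24396 unchanged genes. Only 2 arrays per group limit the precision.

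The members, lists and tests were chosen with earlier results of these data known. Genes named are the members, their paralogues and partners, and up to 3 called genes per direction of each related list with the largest differences (2 for marker lists); others were named for their role after their values were seen, and 1 gene that the rule names is not reported here. Accessions of 123 of 125 listed genes matched RefSeq (GRCm38.p6), none with another symbol. Alternatives covered background correction, scaling, quantile normalization, filters, a floor, non-uniform spots, probe averaging, the variance model, the authors' values, the replicate block and each array left out.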

Additional observations from a re-analysis of the deposited data

How the results depend on the processing

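All 10 genes were called lower in every alternative except the filter that asks for detection on all 4 arrays, where 6 could be tested and all 6 were called (Epcam, Elf3, Rab25 and Ap1m2 had no such probe). With 1 array left out the count stayed at 10, that of the 6 related lists was 42 to 45 against 48, and that of all genes 7936 to 10072 against 13490. All genes called numbered 8583 without islets replicate 1 and 7936 without islets replicate 2. Scaling moved the median difference of all genes by 0.20 (array median) and -0.19 (probes detected on all arrays), and differences are relative to these centres. Clusters and islets share their replicate numbers by name (r = -0.02 between clusters and islets for replicate 1 minus 2, over genes). With 2 arrays per group, this r cannot tell whether the numbers pair pools of tissue. With the replicate block 10 of the 10 genes, 45 genes of the related lists and 11307 genes in all were called, and 1 RAB11 system gene was higher against 2. None of the 156 member differences changed direction or lost its call, and 29 of 448 other counts moved by over 1.5 times. Dim cluster signals limit the sizes given for Epcam, Elf3, Ap1m2, Rab25 and Spint2.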
